A study of Mus musculus with 3 samples.

Results

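The genes described here act in the G2 phase and in mitosis, when a cell with copied DNA prepares to divide and then separates its chromosomes. They were taken from a list of 45 genes. Probes were assigned by the gene identifier in the annotation of the arrays, or by a current or older name where it gave none. For 38 of the genes 59 probes were found, of 20371 probes in all, and every one passed the filter on dim probes. The arrays list 28 of these probes under an older name, among them those of Ccnb1, Spc25, Kif2c, Anln and most of Kif20a. Whether each probe reports its named gene was not tested. The other 7, Cenpe, Foxm1, Hmmr, Kif20b, Ndc80, Pttg1 and Spc24, were not analysed here. The cells were mouse ovarian surface epithelium (OSE), the single cell layer around the ovary, grown from C57/Bl6 females whose ovaries were collected after hormone-induced superovulation and mating. Mesenchymal cells had spent 1 week in 15% fetal bovine serum, and epithelial cells of the same culture stayed in 2.5%. Both were collected at 80% confluence in 3 separate cultures, and serum and phenotype changed together in each, so they cannot be told apart. The 2 RNAs of a culture were labelled with Cy3 and Cy5 and hybridised together on 2 Agilent 2-colour arrays with the dyes exchanged. This gave 6 arrays, but the replicates are the 3 cultures, a number that limits the precision.

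Entry into mitosis is driven by the kinase Cdk1 with the A and B type cyclins. Chromosomes are then condensed, attached to spindle microtubules at their kinetochores, held until the spindle checkpoint is satisfied, and separated once the anaphase-promoting complex marks its targets for destruction. Most of these genes are transcribed late in the cell cycle, so the RNA of a culture depends on how many cells are dividing. In RNA from whole cultures, fewer cells in mitosis and less RNA per dividing cell cannot be told apart.

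Values below are ratios of mesenchymal to epithelial RNA on the log2 scale unless called levels, with 1 ratio per culture. A change means an adjusted p under 0.05 in limma over 17582 features. Of the 38 measured genes, 6 were higher in mesenchymal cells, namely Bub1, Birc5, Spc25, Kif2c, Mad2l1 and Kif20a. That is 15.8%, beside 5.96% of all features. Anln and Mki67 were lower, which is 5.26%, beside 5.92% of all features. The remaining 30 did not pass. The changes were small, from -0.79 to 0.70, and none of the 38 means reached 1 in size. The median over the 38 genes was 0.09, beside 0.00 over all features. These counts depended on the choice of probe: when all probes of a gene were averaged, 2 were higher (5.26%, beside 5.98% of all features) and 1 was lower (2.63%, beside 5.77%). They also depended on the cultures, with 1 higher and 1 lower without culture 3, each 2.78%, beside 2.33% and 2.52% of all features.

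Of the OSE and mesothelial markers with a probe, all 7 were brighter than the negative controls on all 6 arrays and 6 were lower in mesenchymal cells. Their summed log2 intensity was 17.09 to 17.34 in mesenchymal cells and 18.15 to 18.28 in epithelial cells. The negative controls were exceeded on all 6 arrays also by 4 of 5 granulosa, 4 of 5 theca and 3 of 3 leukocyte markers. The same held for 3 of 4 endothelial and 4 of 4 oocyte markers, so brightness above these controls hardly sets the lists apart. Of 21 markers of granulosa, theca, leukocyte, endothelial and oocyte identity, 1 changed, the germ cell gene Ddx4, at 1.66 (adjusted p = 0.000276). The summed log2 intensity of the 4 oocyte markers was 14.06 to 14.48 in mesenchymal and 13.51 to 13.89 in epithelial cells. The part of these markers in the results below was not tested. Over all features, the ratios of cultures 2 and 3 correlated at 0.89, and those of culture 1 with them at 0.61 and 0.65. These are ratios averaged over exchanged dyes. On single arrays, ratios of mesenchymal over epithelial RNA correlated at 0.81 to 0.93 in the same dye orientation. Between arrays of opposite dye orientation they correlated at -0.50 to -0.10.

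**Figure D1:**
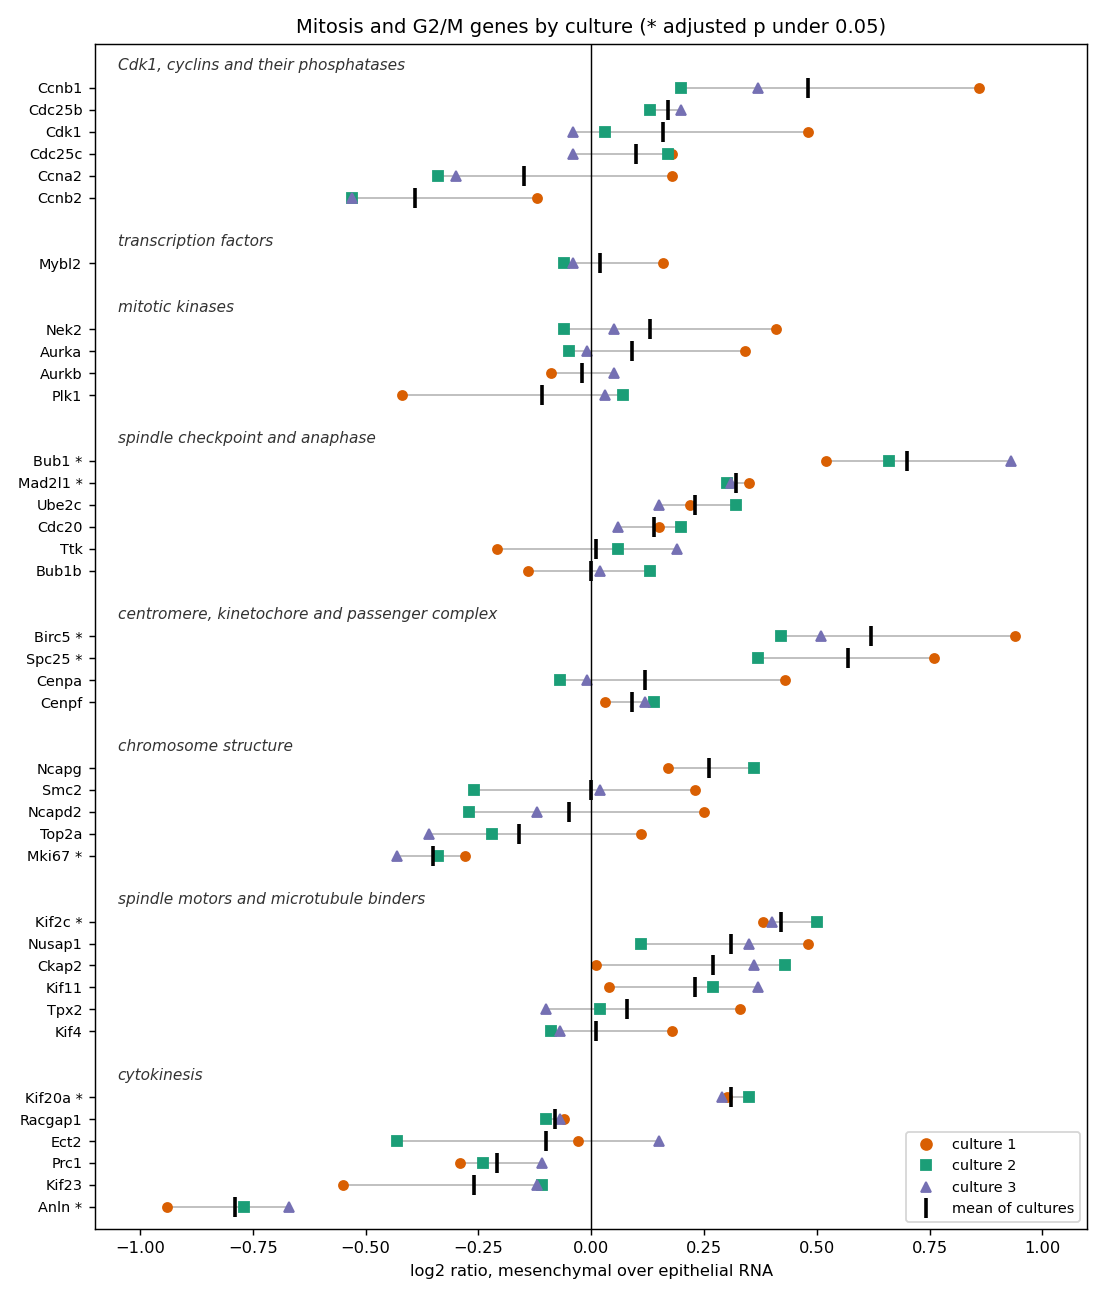
Each row is 1 gene, grouped by role, with its log2 ratio of mesenchymal over epithelial RNA in cultures 1 (circle), 2 (square) and 3 (triangle) and the mean as a bar, and an asterisk marks an adjusted p under 0.05. Bub1 lies farthest to the right, at a mean of 0.70, and Anln farthest to the left, at -0.79, and culture 1 often stands apart from the other two.

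Promoters of genes expressed in G2 and mitosis often carry a cell cycle genes homology region (CHR), bound by the DREAM and B-Myb complexes, and CCAAT boxes, bound by the factor NF-Y. The CHR was searched as TTTGAA or TTCGAA and the CCAAT box as CCAAT, on both strands. The 2 motifs can share 1 base, and such matches were counted for both. The window ran from 200 bases before to 30 bases from the start of the gene in the RefSeq promoters of build GRCm38.p6. Of the 45 listed genes 38 had an entry, which leaves out Aurkb, Ccna2, Cdc25c, Foxm1, Kif20a, Spc24 and Tpx2. A CHR was found in 72.5% of the 40 promoters of the listed genes and in 14.8% of all 32851 promoters. A CCAAT box was found in 77.5% and 31.7% of them, and both motifs in 65.0% and 4.85%. Sorted by the result on the arrays, both motifs were present in 2 of the 5 promoters of higher genes, in 1 of the 2 of lower genes, and in 22 of the 28 of genes that did not pass. These are counts of letters, not of bound sites.

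The promoters of the changed genes with the largest ratios are given here because they show this range, from no motif in Birc5 to 2 CHRs and 3 CCAAT boxes in Mki67. Capitals mark the CHR and the CCAAT box, in either strand's reading, and the last 30 bases begin at the start that the promoter table uses. This start is that of the annotated gene for Bub1, Birc5 and Spc25, and it lies 5 bases inside the annotated gene for Anln and 71 for Mki67. The windows are Bub1 at chr2:127831830-127832059 (minus strand), Birc5 at chr11:117849037-117849266 (plus strand), Spc25 at chr2:69206184-69206413 (minus strand), Anln at chr9:22389177-22389406 (minus strand) and Mki67 at chr7:135716350-135716579 (minus strand).
Bub1: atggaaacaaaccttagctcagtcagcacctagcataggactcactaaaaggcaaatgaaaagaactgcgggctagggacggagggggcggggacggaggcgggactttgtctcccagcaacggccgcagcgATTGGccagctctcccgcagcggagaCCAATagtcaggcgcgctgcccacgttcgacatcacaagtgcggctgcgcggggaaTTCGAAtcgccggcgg
Birc5: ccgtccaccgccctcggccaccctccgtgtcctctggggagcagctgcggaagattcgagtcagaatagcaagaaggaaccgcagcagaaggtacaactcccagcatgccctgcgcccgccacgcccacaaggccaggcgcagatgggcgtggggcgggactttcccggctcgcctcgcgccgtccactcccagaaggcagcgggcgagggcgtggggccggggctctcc
Spc25: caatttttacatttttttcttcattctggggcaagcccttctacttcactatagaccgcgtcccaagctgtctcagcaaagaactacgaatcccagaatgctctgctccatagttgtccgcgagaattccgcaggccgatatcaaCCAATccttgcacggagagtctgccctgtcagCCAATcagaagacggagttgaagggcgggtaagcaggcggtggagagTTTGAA
Anln: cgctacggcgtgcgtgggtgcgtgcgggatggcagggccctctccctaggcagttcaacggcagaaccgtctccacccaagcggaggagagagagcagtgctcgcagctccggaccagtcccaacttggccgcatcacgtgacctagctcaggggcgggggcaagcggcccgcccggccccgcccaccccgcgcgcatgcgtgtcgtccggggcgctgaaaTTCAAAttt
Mki67: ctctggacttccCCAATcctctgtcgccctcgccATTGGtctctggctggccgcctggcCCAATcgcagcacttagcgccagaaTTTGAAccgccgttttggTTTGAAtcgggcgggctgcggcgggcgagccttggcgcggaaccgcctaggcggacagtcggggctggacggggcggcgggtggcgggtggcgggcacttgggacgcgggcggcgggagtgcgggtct
The Bub1 and Spc25 promoters each hold 1 CHR and 2 CCAAT boxes, and the Anln promoter 1 CHR and no CCAAT box.

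Of the 6 measured genes of the spindle checkpoint and of anaphase, 2 were higher and none was lower. The 2 make 33.3%, beside 5.96% of all features higher and 5.92% lower. In this and the other roles, with so few genes, a single gene shifts the share far. Bub1, a kinase that recruits checkpoint proteins to unattached kinetochores, had levels of 12.75, 12.83 and 12.69 in mesenchymal cells of cultures 1, 2 and 3, against 12.23, 12.17 and 11.76 in epithelial cells (log2 intensity). All mesenchymal levels lay above all epithelial ones. Its ratio was 0.70 ± 0.21 (SD, n = 3), or 1.63-fold, with an adjusted p of 0.00665. Mad2l1 encodes Mad2, the checkpoint protein that holds back Cdc20. Its levels were 14.60, 14.14 and 14.23 in mesenchymal cells, against 14.25, 13.83 and 13.92 in epithelial cells. The groups overlapped in level, but the difference within a culture was nearly constant, at 0.35, 0.30 and 0.31. The mean ratio was 0.32 ± 0.03 (adjusted p = 0.0305).

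The other checkpoint and anaphase genes did not pass. Cdc20, an activator of the anaphase-promoting complex, was at 0.14 ± 0.07 and Ube2c, the ubiquitin-conjugating enzyme that works with this complex, at 0.23 ± 0.08, both above 0 in all 3 cultures. The checkpoint kinase gene Ttk was at 0.01 ± 0.20. Bub1b, which encodes the checkpoint protein BubR1, was at 0.00 ± 0.14, but 5 arrays were saturated at its probe in the mesenchymal channel and 4 in the epithelial channel, which limits the ratio that could be seen. All 6 genes of this role had a mean of 0 or above, with a median of 0.18.

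Of the 4 measured genes of the centromere, the kinetochore and the chromosomal passenger complex, 2 were higher and none was lower. Among all features, 5.96% were higher and 5.92% lower. Birc5 encodes survivin, the subunit that brings Aurora B to centromeres. Its levels were 15.27, 14.85 and 14.86 in mesenchymal cells, against 14.33, 14.43 and 14.35 in epithelial cells. The epithelial levels lay close together and below every mesenchymal one, and culture 1 had the largest difference. The ratio was 0.62 ± 0.28 (adjusted p = 0.0187). These values are from the brighter Birc5 probe, and the dimmer one gave -0.36 ± 0.08. Spc25 is a subunit of the Ndc80 complex, which holds the microtubule at the kinetochore. It was measured in cultures 1 and 2 and had levels of 13.80 and 13.49 in mesenchymal cells, against 13.04 and 13.12 in epithelial cells. The levels did not overlap, and the difference was larger in culture 1. Its ratio of 0.57 ± 0.28 (SD, n = 2) lay at the threshold, with an adjusted p of 0.0497. Another Spc25 probe, measured in all 3 cultures, gave 0.49 ± 0.11, and the dimmest gave 0.03 ± 0.13. Cenpa, the centromeric histone H3 variant, was at 0.43, -0.07 and -0.01 in cultures 1, 2 and 3, so only culture 1 stood above 0. Cenpf, a kinetochore protein gene, was at 0.09 ± 0.06 and did not pass either.

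Among the 6 measured spindle motors and microtubule binders, 1 was higher (16.7%, beside 5.96% of all features) and no mean lay below 0. Kif2c, a kinesin that takes microtubules apart at centromeres, had levels of 12.03, 11.80 and 11.65 in mesenchymal cells, against 11.65, 11.30 and 11.25 in epithelial cells. The groups met at 11.65, and within each culture the mesenchymal level was the higher, by 0.38, 0.50 and 0.40. The mean ratio was 0.42 ± 0.06 (adjusted p = 0.0136). These values are from the brighter Kif2c probe, and the dimmer one gave -0.30 ± 0.07. Nusap1, which bundles microtubules near chromosomes, was at 0.31 ± 0.19 and missed the threshold (adjusted p = 0.0848). Ckap2, a microtubule-associated protein gene, was at 0.27 ± 0.22, and the bipolar spindle motor gene Kif11 at 0.23 ± 0.17. Tpx2, the spindle protein that activates Aurora A, was at 0.33, 0.02 and -0.10 in cultures 1, 2 and 3. The chromokinesin gene Kif4 was at 0.18, -0.09 and -0.07, so both it and Tpx2 were highest in culture 1.

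Cytokinesis genes went both ways, with 1 of 6 higher and 1 lower, each 16.7%. Of all features 5.96% were higher and 5.92% lower. Anln encodes anillin, a scaffold of the contractile ring that binds actin, myosin and septins. Its levels were 14.40, 14.21 and 14.49 in mesenchymal cells, against 15.34, 14.98 and 15.16 in epithelial cells. The groups did not overlap, and Anln had the largest difference of all 38 genes. The ratio was -0.79 ± 0.14, or 0.578-fold, with an adjusted p of 0.00251. Kif20a, a kinesin of the central spindle, had levels of 13.55, 13.56 and 13.34 in mesenchymal cells, against 13.25, 13.20 and 13.06 in epithelial cells. These groups did not overlap either, and the ratio was 0.31 ± 0.04 (adjusted p = 0.0336). The other, dimmer Kif20a probes gave -0.06, -0.04 and 0.05.

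The other 4 measured cytokinesis genes had means below 0 and did not pass. Kif23 and Racgap1 encode the 2 subunits of centralspindlin, the complex that organises the midzone of the spindle. Kif23 was at -0.26 ± 0.25 and Racgap1 at -0.08 ± 0.02. Prc1, which bundles the microtubules of the midzone, was at -0.21 ± 0.09 (adjusted p = 0.140), below 0 in every culture. Its probe was matched through the gene identifier alone. Ect2, the exchange factor that activates RhoA at the division plane, was at -0.03, -0.43 and 0.15, one of the 3 widest ranges over the cultures.

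Of 5 chromosome structure genes, 1 changed, to a lower level (20.0%, beside 5.92% of all features). Mki67 encodes Ki-67, a protein that coats mitotic chromosomes and is used widely as a marker of cycling cells. Its levels were 14.53, 14.29 and 13.93 in mesenchymal cells, against 14.80, 14.63 and 14.35 in epithelial cells. The level was lower in the mesenchymal cells of each culture, though the groups overlapped. The ratio was -0.35 ± 0.08 (adjusted p = 0.0284). Top2a, the topoisomerase that untangles sister chromatids, was at 0.11, -0.22 and -0.36 in cultures 1, 2 and 3 (adjusted p = 0.454). Its probe reached saturation in the mesenchymal channel of 1 array and the epithelial channel of 3. The condensin subunit genes Smc2, Ncapd2 and Ncapg were at 0.00, -0.05 and 0.26 and did not pass, and Ncapg rested on 2 cultures and on a match by gene identifier alone.

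Cdk1, its cyclins and the phosphatases that activate it had no changed member in limma, and 2 of the 6, both cyclins, had an unadjusted p under 0.05, as had 23.6% of all features. The B type cyclins lay at opposite ends of the group. Ccnb1 was at 0.86, 0.20 and 0.37 in cultures 1, 2 and 3, with a mean of 0.48 ± 0.34 (adjusted p = 0.0751). Ccnb2 was at -0.12, -0.53 and -0.53, with a mean of -0.39 ± 0.24 (adjusted p = 0.0633). On all 6 arrays Ccnb1 was above 0 and Ccnb2 below 0, a constancy of sign that 10.6% of all features had. Cdk1 was at 0.48, 0.03 and -0.04 and was saturated for mesenchymal RNA on 1 array. Ccna2, cyclin A2, was at 0.18, -0.34 and -0.30, so its sign differed between culture 1 and the other two. The phosphatase genes Cdc25b and Cdc25c were at 0.17 (n = 2) and 0.10 and did not pass.

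None of the 4 mitotic kinases changed in limma, nor did any have an unadjusted p under 0.05, beside 23.6% of all features. Plk1, a kinase of mitotic entry and of centrosome maturation, was at -0.42, 0.07 and 0.03 in cultures 1, 2 and 3. Aurkb, the Aurora B kinase that forms a complex with survivin, was at -0.09 and 0.05 in cultures 1 and 3. In these cultures the brighter Birc5 probe was at 0.94 and 0.51 and the dimmer one at -0.36 and -0.28. Aurka, the centrosomal Aurora kinase, was at 0.09 ± 0.21 and Nek2, a kinase of centrosome separation, at 0.13 ± 0.25. The only transcription factor gene measured was Mybl2, which encodes B-Myb, and its brightest probe gave 0.16, -0.06 and -0.04.

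**Figure D2:**
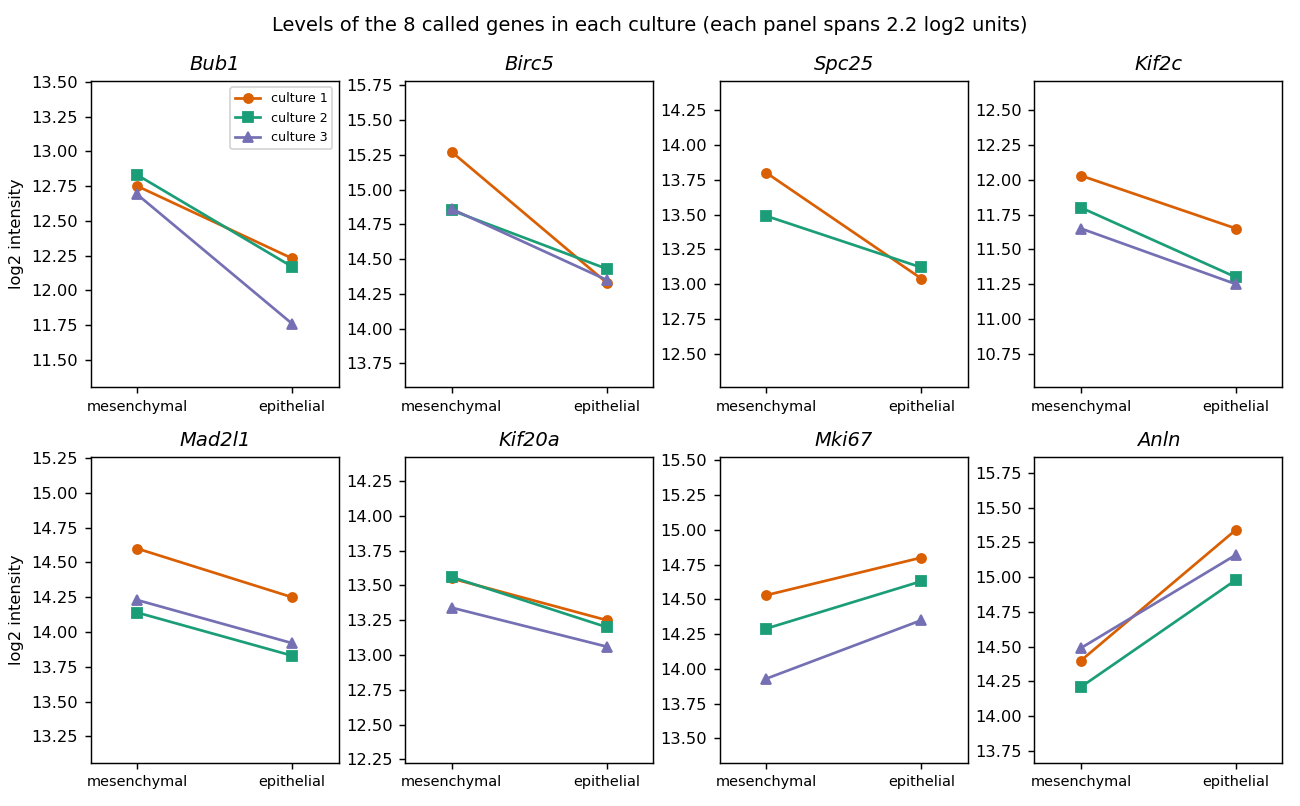
Each panel shows 1 of the 8 changed genes, with the log2 intensity of mesenchymal RNA on the left and epithelial RNA on the right and a line for each culture. All lines of Bub1, Birc5, Spc25, Kif2c, Mad2l1 and Kif20a lie higher on the mesenchymal side, and all lines of Mki67 and Anln lower, and Spc25 has no line for culture 3.

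Several probes were present for 15 of the 38 genes, and for 8 of these the probes had means on both sides of 0. The dimmer Birc5 probe gave -0.36, -0.44 and -0.28, the opposite sign of the brighter one in each culture. With every probe as a feature of its own it was lower (adjusted p = 0.0286), while the brighter was higher (adjusted p = 0.0212). The second Kif2c probe gave -0.30 ± 0.07 and missed the threshold in that fit (adjusted p = 0.0511). The dimmest Spc25 probe gave 0.03 ± 0.13, and the other 3 Kif20a probes gave -0.06, -0.04 and 0.05.

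For Mybl2 the 3 probes gave 0.02, -0.22 and -0.56 in order of brightness, and the dimmest was lower (adjusted p = 0.00527) and below 0 on all 6 arrays. The second Bub1 probe had a mean of 0.82 ± 0.54, but it was at 2.54, 4.09 and 4.15 with mesenchymal RNA in Cy3 and at -2.14, -1.85 and -1.86 in Cy5. The dim second Anln probe gave -0.29 in 2 cultures and the dim second Mki67 probe 0.08 in 2 cultures. In all, 7 of the 59 probes were higher and 4 lower in that fit, beside 5.60% and 5.66% of its 20185 features. Which probe reports the main transcript of its gene was not tested.

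**Figure D3:**
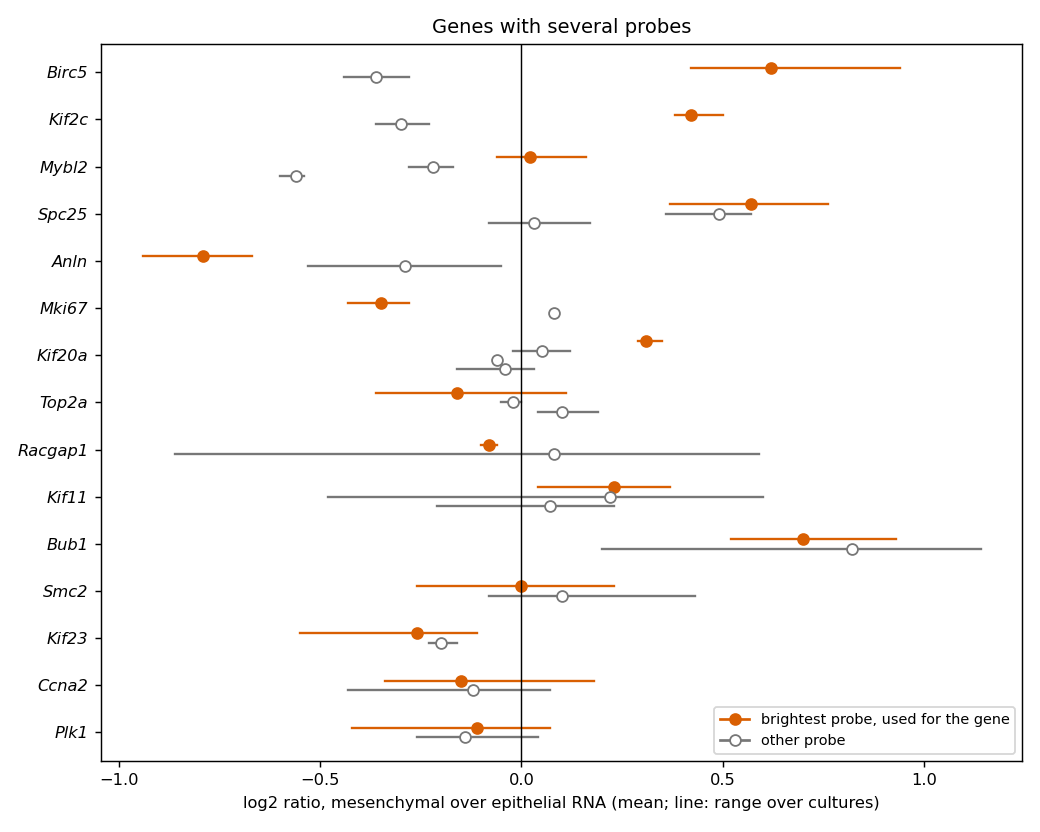
For each of the 15 genes with several probes, every probe's mean log2 ratio of mesenchymal over epithelial RNA is drawn as a point with a line for its range over cultures, the brightest probe filled. Birc5 has the widest gap between probes, 0.98, and the probes of Ccna2 and Plk1 lie within 0.03 of each other.

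For many of these genes the dye effect was as large as the ratio itself. Over all features the dye effect had an SD of 0.46, beside 0.31 for the log2 ratio, and it cancels in the mean of 2 arrays with exchanged dyes. In limma, 10035 of the 17582 features had a dye effect at an adjusted p under 0.05. For 21 of the 38 genes it was larger in size than the mean ratio. Bub1 was at 1.07, 1.53 and 1.57 on the arrays with mesenchymal RNA in Cy3, and at -0.03, -0.21 and 0.29 on those with it in Cy5. Kif2c was at 0.82, 1.04 and 0.89 with mesenchymal RNA in Cy3, and at -0.07, -0.05 and -0.09 in Cy5. Mad2l1 and Kif20a had the same pattern. With mesenchymal RNA in Cy5 the means of Bub1, Kif2c, Mad2l1 and Kif20a were 0.02, -0.07, -0.10 and -0.09.

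Birc5, Spc25 and Mki67 kept 1 sign on every array where they were measured. Birc5 was at 1.19, 0.77 and 0.84 with mesenchymal RNA in Cy3, and at 0.69, 0.07 and 0.18 in Cy5. Anln was at -0.57, -0.20 and 0.26 with mesenchymal RNA in Cy3, and at -1.31, -1.34 and -1.59 in Cy5, so 5 of 6 arrays were below 0. Which RNA carried which dye was read from the arrays' deposited names, since the labels give Cy3 and Cy5 for either RNA.

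**Figure D4:**
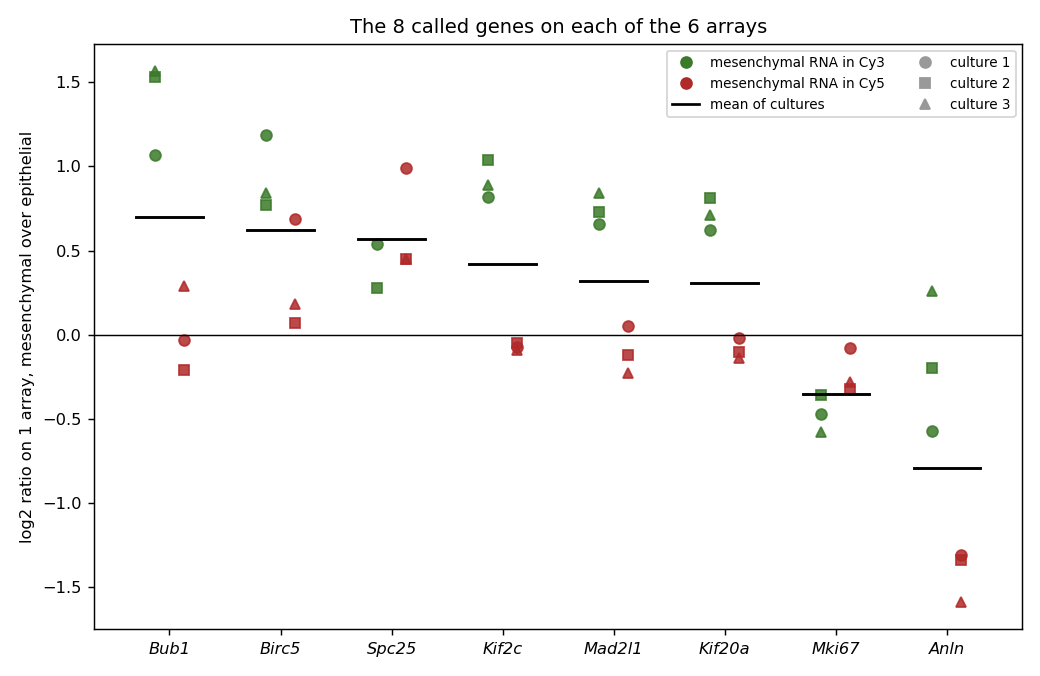
Log2 ratios of mesenchymal over epithelial RNA are drawn for the 8 changed genes on each of the 6 arrays, green with mesenchymal RNA in Cy3 and red in Cy5, with a marker for each culture and a black bar at the mean. Birc5 and Spc25 lie above 0 and Mki67 below 0 in both colours, while Kif2c, Mad2l1 and Kif20a lie clearly above 0 in green alone. Bub1 too lies clearly above 0 in green, and its red points lie on both sides of 0.

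The cultures did not give the same picture. The median over the listed genes was 0.18 in culture 1, 0.06 in culture 2 and 0.03 in culture 3, and 26 of 37 genes were above 0 in culture 1, 21 of 37 in culture 2 and 20 of 36 in culture 3. Over all features the medians were -0.001, -0.017 and 0.015 in cultures 1, 2 and 3. Of all 17582 features, 8632 had a mean ratio above 0. Of the 34 genes measured in all cultures, 18 had 1 sign throughout, 12 above 0 and 6 below, and 10 had in culture 1 the opposite sign to both other cultures. Across these genes, which are not independent, the ratios of cultures 2 and 3 correlated at 0.87, and those of culture 1 with them at 0.56 and 0.60. The median difference in size was 0.10 between cultures 2 and 3 and 0.28 between culture 1 and their mean.

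Without culture 1, 11 of 36 genes were higher and 5 lower, which is 30.6% and 13.9%, beside 17.9% and 14.3% of all features in that fit. Spc25 was then read from its second probe, at 0.46. Added to the higher genes were Ccnb1 (0.28), Kif11 (0.32), Ckap2 (0.39), Ube2c (0.23) and Nusap1 (0.23). Added to the lower genes were Ccnb2 (-0.53), Ccna2 (-0.32) and Top2a (-0.29). Without culture 3, Bub1 and Anln alone passed. The array of culture 3 with mesenchymal RNA in Cy3 stood apart, with 1639 outlier-flagged spots, against 61 to 467 on the others, and a different background method in its header. Gene names matched those of an array of culture 1 for 75.5% of its probes, which were aligned by their place on the array. Its part in the results was not tested apart from leaving out culture 3.

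Other genes of mitosis came from 6 lists of further regulators and subunits. Of 78 tested, 5 were higher (6.41%, beside 5.96% of all features) and 3 lower (3.85%, beside 5.92%), with a median of 0.04. The share of higher genes was thus near that of all features. Nuf2, a subunit of the Ndc80 complex like Spc25, was at 0.32, 0.67 and 0.64 (adjusted p = 0.0154). Zwint, a kinetochore protein gene, was at 0.44 ± 0.20 and the kinesin gene Kif18a at 0.46 ± 0.12 (n = 2). Anapc2, a subunit of the anaphase-promoting complex, was at 0.59 ± 0.35. The dye effect was larger in size than the ratio for Zwint (0.58) and Kif18a (-1.39), but not for Nuf2 (-0.51) and Anapc2 (0.47). Lower were Cdc25a, a phosphatase that activates Cdk complexes, at -0.50 ± 0.08 (adjusted p = 0.00777), the kinetochore gene Zwilch at -0.45 ± 0.10 and Anapc1, another subunit of the complex, at -0.39 ± 0.16. None of 12 condensin and cohesin genes of these lists changed in limma, while 3 had an unadjusted p under 0.05, a share near the 23.6% of all features.

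Genes of the G1/S transition and of DNA replication had 10 of 42 higher (23.8%) and 2 lower (4.76%), with a median of 0.15. Of all features 5.96% were higher and 5.92% lower. The difference between these counts and those of the mitosis and G2/M genes was not tested. Higher with the largest ratios were Gins1 (0.83 ± 0.10), Tk1 (0.83 ± 0.07), Gins4 (0.57 ± 0.17) and the licensing inhibitor gene Gmnn (0.48 ± 0.03). Lower were Gins2 (-0.43 ± 0.19) and the licensing factor gene Cdt1 (-0.32 ± 0.09). Gins1, Gins2 and Gins4 encode subunits of 1 complex of the replicative helicase.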

How the data were processed

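Amplified RNA from 4 µg of total RNA was hybridised on 2-colour arrays. Per the file headers, the deposited intensities are mean spot signals with their local background, in linear units. The log10 ratios of the scanner software and of the authors' deposited value table, which by its values averages the 2 arrays' log10 ratios turned the same way, served as alternatives. Of tools, limma is named in the submitters' processing notes, without settings.

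With limma 3.58.1 (R 4.3.3), the background was corrected by normexp (offset 50) and each array was loess-normalised. Ratios were turned to mesenchymal over epithelial and averaged over the 2 arrays of a culture, with outlier-flagged spots left out. A probe needed the well-above-background flag for 1 RNA on at least 4 arrays, a weak filter, since 18.5% to 81.5% of negative control spots carried it. The brightest probe stood for a gene, and at least 2 cultures had to be measured. Log2 ratios were tested against 0 (lmFit, eBayes, two-sided, Benjamini-Hochberg over 17582 features), which called 2088. Levels come from separate channels after Aquantile. On simulated data 36% of changes of 0.5 and 95% of changes of 1 on the log2 scale were recovered. Only 200 of the simulated features were changed, fewer than the 2088 called here, so these shares need not hold for the real fit. Both RNAs of a culture share its arrays, so each ratio is paired by culture as the labels describe.

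The genes and lists were chosen with earlier results of these data known. Given with values in each culture were all changed genes, the 3 largest ratios in each direction, the 2 brightest genes of roles with fewer than 2 changed genes, genes whose probes differ by over 0.5 and the 3 widest ranges. From the other lists, up to 4 changed genes in each direction were named.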

Additional observations from a re-analysis of the deposited data

How the results depend on the processing

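Over 19 alternatives per gene, the calls of Anln and Bub1 were each lost under 2, that of Birc5 under 4, those of Kif2c and Mki67 under 5, those of Mad2l1 and Kif20a under 7 and that of Spc25 under 8. Against 6 higher and 2 lower among 2088 features in all, leaving out 1 culture in turn gave 1 to 11 higher and 1 to 5 lower, with 818 to 5154 features. The mean of all probes gave 2 higher and 1 lower. A trend and robust variance gave 3 higher (7.89%) and 2 lower (5.26%), beside 2036 features called in either direction (11.6%). A threshold of 0.01 gave 1 higher and 1 lower (2.63% each), beside 933 features in either direction (5.31%). With no replicate block, so without the pairing by culture, 0 were higher and 0 lower by limma and 244 features were called. The lowest adjusted p of the genes was 0.0835. In that fit 7 of the 38 genes had an unadjusted p under 0.05. The share of all features under it was not counted, so this number is not read further. The arrays with mesenchymal RNA in Cy5, taken alone, gave 7 higher (18.4%) and 9 lower (23.7%), beside 7076 features called in either direction (40.0%). Those with it in Cy3, taken alone, gave 12 higher (31.6%) and 4 lower (10.5%), beside 5879 features (33.3%). In both of these fits the dye effect stays in the ratio.

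On the arrays with mesenchymal RNA in Cy5 the sign turned for 10 of the 38 genes, 6 of them called in that fit or in the full one, namely Mad2l1 (-0.10), Kif2c (-0.07), Kif20a (-0.09), Ttk (-0.70), Ckap2 (-0.72) and Ncapg (-2.20). On those with it in Cy3 it turned for 11, 3 of them called in either fit, namely Mybl2 (-0.35), Kif23 (0.61) and Ect2 (0.71). The other alternatives, including a filter against negative controls chosen after seeing the data, kept both counts within 1.5 times. The scan date as a block was not run, since the headers used here give none. Groups of 3 cultures are too small for a search for outlying samples.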
